A study of Homo sapiens with 24 samples.

Results

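The cytosolic ribosomal protein genes are described here over 24 arrays from thyroid cells, transfected either to deplete COPZ1 or with a control siRNA. COPZ1 encodes a zeta subunit of coatomer, the protein coat of vesicles that travel between the Golgi and the endoplasmic reticulum. The genes were chosen by name only: RPL or RPS followed by a number, with the paralog endings A, X and L, together with RPSA, RPLP0, RPLP1 and RPLP2. The rule found 78 of the 18632 genes in the table, 48 of the large subunit and 30 of the small subunit. RPLP2, RPL26 and RPL39 were not analysed here.

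A cytosolic ribosome translates nuclear-encoded messenger RNA into protein. Its small subunit reads the message and its large subunit joins the amino acids, and each subunit holds 1 copy of most of its proteins. Most ribosomal protein mRNAs belong to the TOP class (5′ terminal oligopyrimidine): transcription starts on a C that is followed by a run of C and T, and the translation of these mRNAs is controlled together through mTORC1 and the RNA-binding protein LARP1. The set also holds paralogs such as RPL10L, RPL22L1, RPL39L and RPS27L, which are not made evenly in all tissues.

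The starts of 8 genes that the results turn on are shown to let a reader look for this class feature. Each line gives the 20 bases before and the 20 bases from an annotated transcription start, 5′ to 3′ on the gene's strand, taken from RefSeq on GRCh38.p14. Capitals mark the longest unbroken run of C and T that touches the 5 bases on either side of the start, where that run is at least 7 bases long. This is looser than the class feature, since the start itself need not be a C within the run.
RPS27, chr1:153990742-153990781, plus strand: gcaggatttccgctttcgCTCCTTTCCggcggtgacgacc
RPS27L, chr15:63157458-63157497, minus strand: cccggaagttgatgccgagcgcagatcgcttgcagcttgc
RPS12, chr6:132814549-132814588, plus strand: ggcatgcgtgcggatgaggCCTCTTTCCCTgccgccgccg
RPL22L1, chr3:170870176-170870215, minus strand: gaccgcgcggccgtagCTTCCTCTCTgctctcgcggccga
RPS26, chr12:56041898-56041937, plus strand: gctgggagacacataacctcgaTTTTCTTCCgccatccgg
RPL41, chr12:56116613-56116652, plus strand: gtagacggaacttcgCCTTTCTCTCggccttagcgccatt
RPL21, chr13:27251538-27251577, plus strand: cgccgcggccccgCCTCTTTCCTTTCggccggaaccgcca
RPS29, chr14:49598691-49598730, minus strand: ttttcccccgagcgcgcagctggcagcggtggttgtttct
RPS27, RPS12, RPL22L1, RPS26, RPL41 and RPL21 carried such a run, 9 to 13 bases long. In RPS26 the annotated start is a G and the run begins after it. RPS27L and RPS29 carried none in this window. RefSeq promoters were found for 62 of the 78 genes by symbol, and 48 of these 62 (77.4%) had a run of at least 7 bases, against 20.4% of the 14068 genes of the table with a promoter. The letters CTTTC stood within 20 bases of the start, on the gene's strand, in 31 of 62 genes (50.0%) and in 7.29% of all 14068. The same letters on the opposite strand, GAAAG, stood there in 2 of 62 (3.23%) and in 4.88% of all. Where a gene had several annotated starts, any start with a match counted, which concerned 11 of the 62 genes and 3760 of the 14068. The longest run had a median of 11 bases over the large subunit genes and 10.5 over the small subunit genes. Among the genes without a run were the paralogs RPL7L1, RPL10L, RPL26L1 and RPS27L. The rest were RPL3, RPL4, RPL6, RPL9, RPL15, RPL27, RPL32, RPS4X, RPS15 and RPS29, while the paralog RPL22L1 had a run of 10 bases.

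The arrays come from a pair of human lines: Nthy-ori 3-1 (non-tumour follicular cells made permanent with SV40) and TPC-1 (papillary carcinoma of the thyroid). Each was transfected with 20 nM of siCOPZ1, an esiRNA (a pool of short RNAs cut from a longer one), or with 20 nM of siNT, a single non-targeting control duplex, and RNA was taken 48 h or 72 h later from triplicate wells, which makes 8 groups of 3 arrays. Nthy-ori 3-1 cells grew in RPMI 1640 and TPC-1 cells in DMEM, so line and medium cannot be told apart, nor can COPZ1 depletion and the change of reagent kind. The labels do not say that wells came from separate experiments, so p-values measure the spread between wells, which may be technical.

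COPZ1 itself was lower in all 12 siCOPZ1 wells than in any siNT well. On the log2 scale it fell by 1.96 in Nthy-ori 3-1 at 48 h (limma adjusted p = 0.000656) and by 1.57 at 72 h (limma adjusted p = 0.0178). In TPC-1 it fell by 3.25 at 48 h (limma adjusted p = 1.03e-07) and by 2.17 at 72 h (limma adjusted p = 1.83e-06). The thyroid transcription factor genes PAX8 and FOXE1 lay above the array median on all 24 arrays, while TSHR, SLC5A5 and NKX2-1, which mark differentiated follicular cells, lay below it on all 24. All 4 leukocyte markers and all 3 endothelial markers lay below the array median on every array. COL1A1, listed as a fibroblast marker, was at 11.0 to 11.4 in Nthy-ori 3-1 and at 5.54 to 6.55 in TPC-1, and the other 3 fibroblast markers lay below the median everywhere.

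Signals are log2 values, and the signal of one gene cannot be set against that of another, because probes differ. The 24-array means of the 78 genes ran from 4.06 (RPL10L) to 13.5 (RPL24), around array medians of 6.61 to 6.69. 25 genes stood in the brightest 10% of all genes, 11 of the large subunit and 14 of the small. 15 genes had a mean below the array median, and 8 of these, among them RPL10L, RPL3L and RPL22, lay below it on all 24 arrays. The spread between wells depended on the signal. The pooled SD within groups had a median of 0.35 over the 26 dimmest genes, 0.26 over the 26 in the middle and 0.14 over the 26 brightest, against 0.24 over all genes of the table. A difference in RPS9 (SD 0.07) is therefore measured far more closely than the same difference in RPL21, whose SD of 0.65 was the highest of the set. Ribosomal protein genes have many near-identical processed pseudogenes, and how the array's probes divide signal between them is not given in the sources used here.

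**Figure D1:**
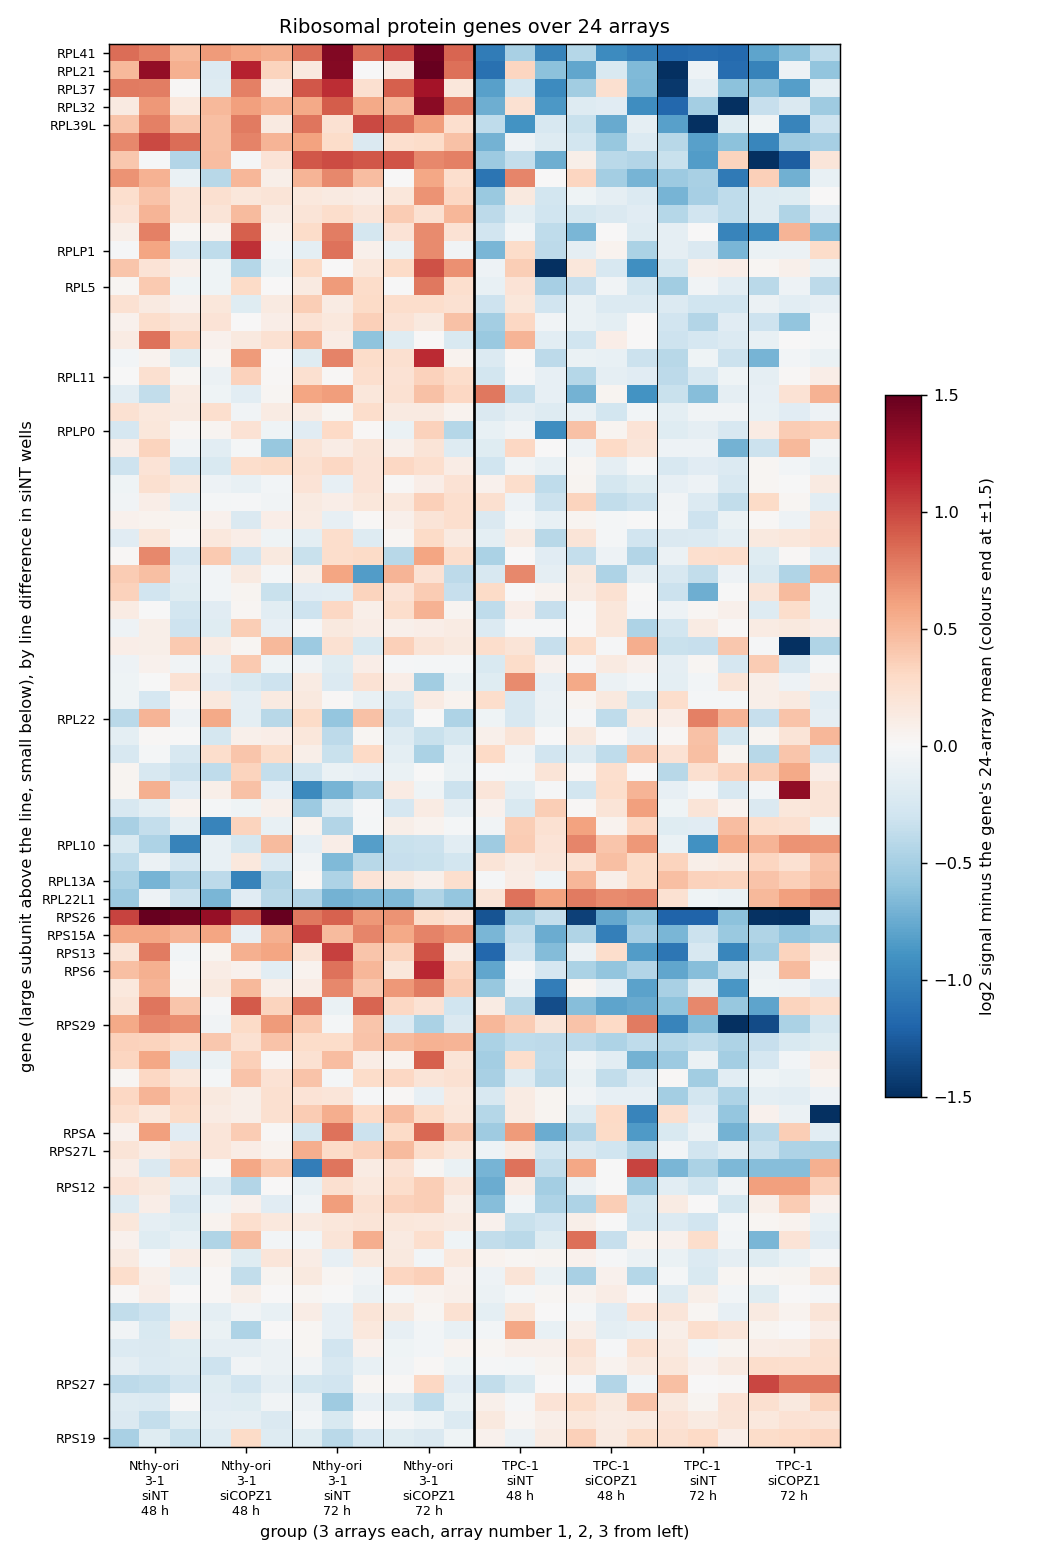
Log2 signal of each of the 78 ribosomal protein genes (rows, with the names of some that the text describes) on each of the 24 arrays (columns, grouped by line, siRNA and time), as a difference from the gene's own 24-array mean. RPL41, RPL21 and RPS26 are red in Nthy-ori 3-1 and blue in TPC-1, RPL22L1 runs the other way, and RPS27 stands out in the 3 TPC-1 siCOPZ1 wells at 72 h.

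One pattern ran across the groups and has to be read before them. The wells of each group are numbered 1 to 3, and in several ribosomal protein genes the array numbered 2 was the highest of its group again and again. RPL21, which encodes a large subunit protein, read 8.07 on number 2 against 7.25 and 7.29 in Nthy-ori 3-1 siNT wells at 48 h, and 8.14 against 6.91 and 6.75 at 72 h. In TPC-1 siNT wells it read 7.08 against 5.64 and 6.14 at 48 h, and 6.69 against 5.02 and 5.62 at 72 h. Number 2 was the highest in all 8 groups for 5 of the 78 genes, RPL21, RPSA, RPL5, RPL23A and RPL32, against 59 of all 18632 genes. It was the highest in 7 of 8 for RPS13, RPLP0, RPS3A, RPL35A and RPL14. In at least 6 groups it was the highest for 16 of the 78 genes (20.5%), against 5.09% of all genes.

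An F test of the array number beside the 8 group means, chosen after the pattern had been seen and run over all genes with limma, called 6 of the 78 genes (7.69%) at an adjusted p below 0.05, against 0.982% of all 18632 genes. The 6 were RPL21, RPSA, RPL5, RPL23A, RPL32 and RPS13, with adjusted p from 0.000189 (RPL21) to 0.0406 (RPL32). RPL35A, RPS3A, RPL14 and RPLP0 were not called (limma F test adjusted p = 0.0721, 0.0754, 0.154 and 0.370). On average over the groups, number 2 exceeded the group mean by 0.68 in RPL21, by 0.48 in RPSA, which encodes a small subunit protein also known as the laminin receptor, and by 0.27 in RPL5. Among the 183 genes called in the whole table, 88 were highest on number 2, 88 on number 1 and 7 on number 3, while all 6 called ribosomal protein genes were highest on number 2. Over the set, number 2 had the highest mean in 42 of 78 genes (53.8%), against 32.0% of all genes. What the numbers stand for is not given in the labels, so what the array number shares was not tested.

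**Figure D2:**
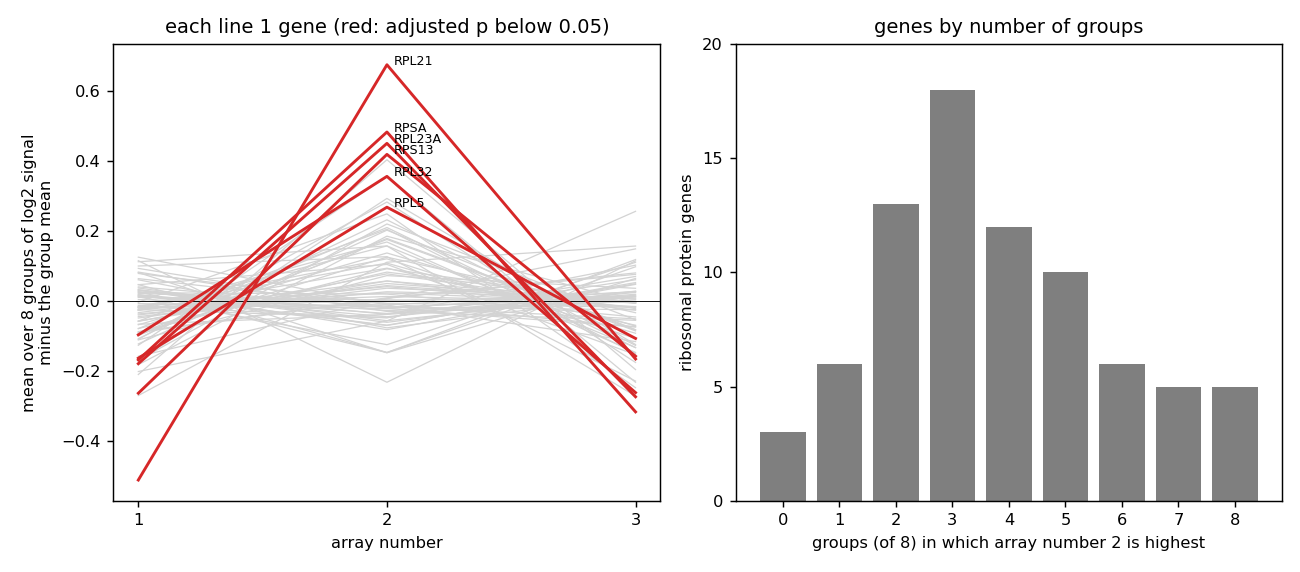
Left, mean deviation from the group mean (log2) by array number, each line 1 of the 78 genes, with the 6 genes at an adjusted p below 0.05 in red. Right, number of genes by how many of the 8 groups had their highest value on array number 2; 5 genes reached all 8.

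The comparison of the 2 lines asks how the non-tumour and the carcinoma line differ in ribosomal protein mRNA. In siNT wells, with both times pooled, 36 of the 78 genes differed between the lines at an adjusted p below 0.05 (46.2%), close to the 44.1% of all genes that did so. Their directions were unequal: 29 genes (37.2%) were lower in TPC-1, where 24.1% of all genes were called lower, and 7 (8.97%) were higher, where 20% of all genes were. Across all 78 genes, called or not, 57 had a lower mean in TPC-1. The median difference was -0.21 over the large subunit genes and -0.36 over the small subunit genes, beside -0.01 over all genes. Of the large subunit, 15 of 48 genes fell and 3 rose. Of the small subunit, 14 of 30 fell and 4 rose.

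RPS26, whose protein sits at the mRNA exit channel of the small subunit, was at 7.79 to 8.83 (median 8.08) in the 6 Nthy-ori 3-1 siNT wells and at 5.84 to 6.77 (median 6.23) in the 6 TPC-1 siNT wells. The ranges did not overlap, and the difference was -1.95 ± 0.23 (SE, n = 6 wells a line, limma adjusted p = 5.03e-07), a fold of 0.26. RPL41, which encodes a very short, basic large subunit peptide, ran from 9.13 to 10.0 in Nthy-ori 3-1 (median 9.48) and from 7.47 to 8.16 in TPC-1 (median 7.54). It differed by -1.86 ± 0.14 (SE, limma adjusted p = 7.20e-10). RPS15A, of the small subunit, lay at 8.12 to 8.66 in Nthy-ori 3-1 and at 6.90 to 7.33 in TPC-1, a difference of -1.21 ± 0.13 (SE, limma adjusted p = 1.82e-07).

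RPL37, RPL39L and RPS13 also fell without overlap, by 1.35, 1.28 and 1.17 on the log2 scale. RPL39L is a paralog of RPL39 best known from testis and from some tumours. RPL21 and RPL32 fell by 1.37 and 1.31, but their highest TPC-1 wells, 7.08 and 8.03, both of them array number 2 of siNT at 48 h, overlapped the Nthy-ori 3-1 range. RPS21, a bright gene singled out after its values were seen, was at 13.3 to 13.5 in Nthy-ori 3-1 and at 12.6 to 12.7 in TPC-1. It differed by -0.74 ± 0.07 (SE, limma adjusted p = 1.01e-08).

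7 genes ran against this direction. RPL22L1, the paralog of RPL22, was at 8.51 to 9.13 (median 8.73) in Nthy-ori 3-1 and at 9.11 to 10.0 (median 9.43) in TPC-1. It rose by 0.74 ± 0.11 (SE, limma adjusted p = 1.86e-05), with an overlap of 1 well in each line. RPL13A, whose protein is also known from the interferon-gamma response of monocytes, rose by 0.51 ± 0.12 (SE, limma adjusted p = 0.00104). RPL36 rose by 0.48, RPS19 (the first gene found mutated in Diamond-Blackfan anaemia) by 0.43 and RPS9 by 0.30. RPL36, RPS19 and RPS9 did so with no overlap between the lines. 6 of the 7 are among the 26 brightest genes of the set, where 11 others fell.

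The siCOPZ1 wells, which share no array with the siNT wells, gave a second reading of the same line comparison. There 34 of 78 genes differed (43.6%, against 42.6% of all genes): 24 were lower in TPC-1 (30.8%, against 23.3%) and 10 higher (12.8%, against 19.3%). 28 genes were called in both comparisons, 77.8% of the siNT calls and 82.4% of the siCOPZ1 calls, and all 28 went the same way, 21 lower and 7 higher. The same overlap over all genes was not counted, so these shares have no background beside them. Both comparisons use 1 estimate of the spread per gene from all 24 arrays, so their calls are not fully separate. RPS26 differed by -1.88, RPL41 by -1.54 and RPS15A by -1.08. RPL21, RPL32, RPL31, RPL26L1 and RPL39L also fell, by 1.20, 1.11, 1.08, 0.95 and 0.95. RPL22L1 rose by 1.17 ± 0.11 (SE, limma adjusted p = 4.57e-08), from 8.52 to 9.04 in Nthy-ori 3-1 to 9.70 to 9.99 in TPC-1, now without overlap. RPL10 (0.73), RPL13A (0.58), RPL36 (0.51), RPS27 (0.43), RPS19 (0.37) and RPS9 (0.30) rose as well. The medians were -0.16 over the large and -0.14 over the small subunit genes, closer together than in siNT wells; the difference between subunits was not tested.

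**Figure D3:**
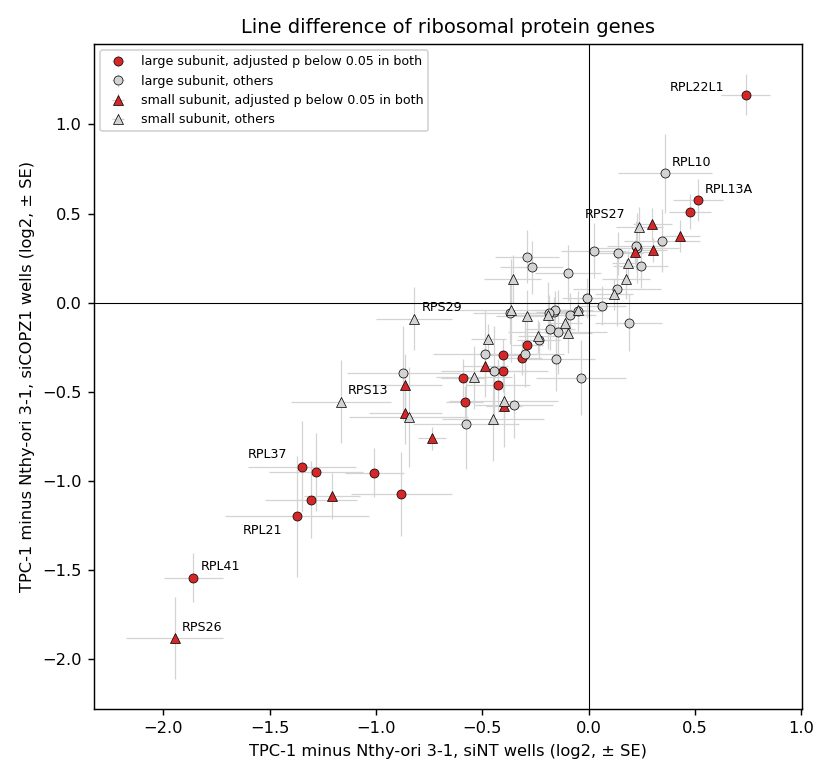
TPC-1 minus Nthy-ori 3-1 for the 78 genes (log2, bars ± SE), siNT wells on the x axis and siCOPZ1 wells on the y axis, circles for the large and triangles for the small subunit, red where the adjusted p was below 0.05 in both. The 28 red points lie in the lower left (21) and upper right (7), from RPS26 at -1.95 and -1.88 to RPL22L1 at 0.74 and 1.17.

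With all arrays numbered 1 left out, RPL10 (limma adjusted p = 0.111), RPS27 (0.0667) and RPS19 (0.0744) lost their call in siCOPZ1 wells. The counts depend on the scale. When arrays were centred on the brightest 10% of genes, ribosomal protein genes left out, all genes moved up by 0.11 in the siNT line comparison, and the calls became 13 higher and 25 lower, beside 26.4% higher and 19.5% lower of all genes. In siCOPZ1 wells they became 13 higher and 17 lower, beside 23.8% and 19.8% of all genes. With either siRNA, lower calls thus still outnumbered higher ones in the set, while over all genes higher calls outnumbered lower ones. The medians stayed below 0 in both subunits, at -0.10 and -0.25 in siNT wells. Promoter runs were found in 16 of the 23 genes with a promoter that fell in siNT wells, in 5 of 5 that rose and in 27 of 34 that were not called.

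The depletion of COPZ1 was compared within each line and time. In TPC-1 at 72 h, without a block for the array number, 3 ribosomal protein genes were called higher in siCOPZ1 than in siNT wells and none lower: RPS27, RPS12 and RPL22L1. That is 3.85% of the set, while the test called 14.4% of the whole table (7.03% up, 7.42% down); the difference between these shares was not tested. RPS27, which encodes a zinc-finger protein of the small subunit (metallopanstimulin), read 8.94, 8.49 and 8.50 in the siNT wells and 9.48, 9.29 and 9.29 in the siCOPZ1 wells. Every siCOPZ1 well lay above every siNT well, and the difference was 0.71 ± 0.16 (SE, n = 3 wells a group, limma adjusted p = 0.00342), a fold of 1.64.

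RPS12, a small subunit protein of the beak, read 8.24, 8.12 and 8.34 in siNT wells and 9.01, 9.02 and 8.74 in siCOPZ1 wells. It rose by 0.69 ± 0.19 (SE, limma adjusted p = 0.0164), again without overlap. RPL22L1 read 9.44, 9.14 and 9.11 in siNT wells and 9.70, 9.83 and 9.93 in siCOPZ1 wells, and was higher there by 0.59 ± 0.16 (SE, limma adjusted p = 0.0178). Its TPC-1 group means were 9.75 (siNT) and 9.95 (siCOPZ1) at 48 h, and 9.23 and 9.82 at 72 h. The siNT mean of RPL22L1 thus fell between the times, without a call, and its siCOPZ1 mean did not rise. Within array numbers 1, 2 and 3 at 72 h, RPS27 differed by 0.54, 0.80 and 0.79, RPS12 by 0.77, 0.90 and 0.40, and RPL22L1 by 0.26, 0.68 and 0.81. RPS27 stayed past the threshold whichever of the 6 arrays was left out. RPS12 did not without siNT number 2 (limma adjusted p = 0.0606), siCOPZ1 number 1 (0.0544) or siCOPZ1 number 2 (0.0620), nor with all arrays numbered 1 left out (0.125). RPL22L1 did not without siNT number 2 (0.0629) or 3 (0.0770), or siCOPZ1 number 2 (0.0514) or 3 (0.0717), nor when only the 6 arrays compared were fitted (0.0598). The count was 1 gene without siCOPZ1 number 2, 2 without siNT number 2 and 3 without any 1 of the others. Those 3 were not always the same genes: without siNT number 3 RPL10 passed (1.11, limma adjusted p = 0.0248), and without siCOPZ1 number 3 RPL31, singled out after its values were seen, was called lower (-1.12, limma adjusted p = 0.0106).

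The other genes of the set did not pass the test, some of them with differences as large as the called ones but a wider spread between wells. 58 of the 78 differences were above 0 (74.4%), against 49.4% of all genes. The medians were 0.17 over the large and 0.15 over the small subunit genes, beside -0.00 over all genes. The TPC-1 siNT wells themselves moved over time. From 48 h to 72 h, 28 of their 78 differences were above 0 (35.9%, against 50.7% of all genes). The medians of that change were -0.12 over the large and 0.00 over the small subunit genes. In TPC-1 siCOPZ1 wells 50 differences over time were above 0 (64.1%, against 45.2%). How far the change in siNT wells enters the depletion difference was not tested. At 72 h the 3 siCOPZ1 wells lay wholly above the 3 siNT wells in 19 genes (24.4%), against 14% of all genes, and wholly below in 1, RPS27L (1.28%), against 14.9%. Among the 19 were RPS6, RPL41, RPLP0 and RPLP1. RPS6, whose phosphorylation by S6 kinase is a common readout of mTORC1, read 9.83, 9.97 and 10.2 in siNT wells and 10.5, 11.1 and 10.6 in siCOPZ1 wells, a difference of 0.72 ± 0.25 (SE, limma adjusted p = 0.0545). RPL41 differed by 0.56 (limma adjusted p = 0.0616). With arrays centred on their medians, RPS6 (0.0458) and RPL41 (0.0455) passed. With the array number as a block within line and time, RPS6 (limma adjusted p = 0.0139), RPL41 (0.0380), RPL32 (0.0167) and RPS13 (0.0423) passed. Over all genes the pairing check did not bear out that block at 72 h, though same-numbered wells deviated together over the ribosomal protein genes (correlations 0.239, 0.421 and 0.287). Among all 78 genes the differences ran from -0.59 to 0.80, the latter in RPL32 (limma adjusted p = 0.0897), which passed without siNT number 2 (0.0213).

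The mean over the large subunit genes, each taken against its own 24-array mean, was -0.29, -0.20 and -0.20 in the 3 TPC-1 siNT wells at 72 h and -0.13, -0.03 and -0.00 in the siCOPZ1 wells. Over the small subunit genes it was -0.23, -0.16 and -0.30 in siNT wells and -0.16, -0.00 and 0.00 in siCOPZ1 wells, where the lowest siCOPZ1 well lay just below the highest siNT well. All 12 Nthy-ori 3-1 wells had a small subunit mean above 0, from 0.04 to 0.26. The large minus the small subunit mean lay between -0.12 and 0.10 on all 24 arrays.

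**Figure D4:**
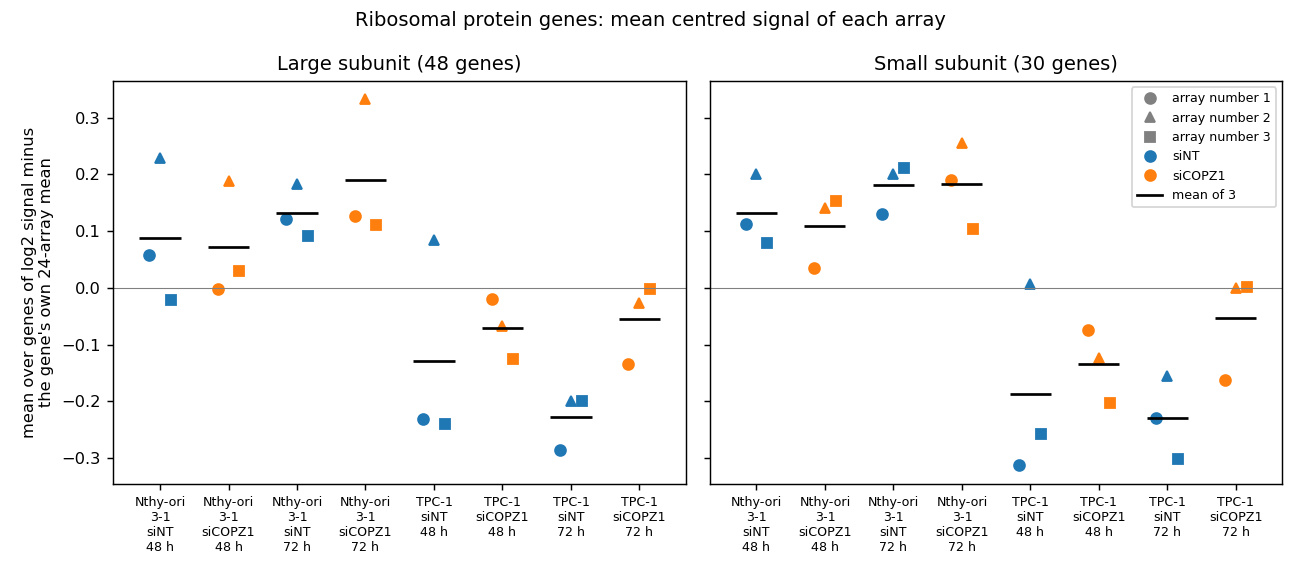
Mean over genes of the log2 signal minus each gene's 24-array mean, for each array, with the 48 large subunit genes on the left and the 30 small subunit genes on the right; shapes give the array number, colours the siRNA, and lines the mean of 3. TPC-1 groups lie below Nthy-ori 3-1 groups in both panels, from 0.19 to -0.23 in the large subunit means, and array number 2 is the highest of its group in 6 of 8 groups on the left and 4 of 8 on the right.

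In the other depletion comparisons no ribosomal protein gene passed the limma test. In Nthy-ori 3-1 at 48 h and at 72 h, COPZ1 was the only gene called at each time, which is 0.00537% of the table, and 2 ribosomal protein genes (2.56%) at each time had an unadjusted p below 0.05, against 4.86% of all genes at the earlier time and 3.08% at the later. For TPC-1 at 48 h, 0.166% of all genes were called, and 2 ribosomal protein genes had an unadjusted p below 0.05, where 9.04% of all genes did. The medians over the large and small subunit genes were -0.02 and 0.00 in Nthy-ori 3-1 at 48 h, 0.05 and 0.04 at 72 h, and 0.04 and 0.04 in TPC-1 at 48 h. With the array number as a block, which the pairing check over all genes bears out for TPC-1 at 48 h, the count there was also 0. Over the ribosomal protein genes alone the correlations of those same-numbered wells were -0.0078, 0.15 and 0.342.

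The difference of the depletion effect between the lines was tested directly. No ribosomal protein gene passed at 48 h, where 0% of all genes did and no ribosomal protein gene had an unadjusted p below 0.05 (3.3% of all genes), nor at 72 h, where 4.02% of all genes did and 5 members had an unadjusted p below 0.05 (16.6% of all genes). At 72 h the effect in TPC-1 exceeded that in Nthy-ori 3-1 by 0.49 ± 0.22 in RPS27 (SE, limma adjusted p = 0.263), by 0.52 ± 0.27 in RPS12 (0.346) and by 0.54 ± 0.23 in RPL22L1 (0.224). A rise confined to TPC-1 is thus not shown for any of the 3. Without TPC-1 siCOPZ1 number 1 at 72 h, 1 member passed, RPS29, and in the test between times in TPC-1, 1 member, RPL36A, passed without siCOPZ1 number 2 at 48 h. In TPC-1 the effect at 72 h was not shown to differ from that at 48 h for any member either (2.04% of all genes passed; 5 members and 15.6% of all genes had an unadjusted p below 0.05), and the same held in Nthy-ori 3-1 (0% passed; 1 member and 2.6% of all genes).

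Time in culture was compared within each line and siRNA. RPS29, a short zinc-binding protein of the small subunit head, was lower at 72 h in TPC-1. In siNT wells it read 6.75, 6.63 and 6.44 at 48 h and 5.26, 5.60 and 4.65 at 72 h, and it fell by 1.44 ± 0.25 (SE, limma adjusted p = 0.00843), a fold of 0.37. In siCOPZ1 wells it read 6.67, 6.54 and 7.03 at 48 h and 4.91, 5.77 and 5.98 at 72 h, and it fell by 1.19 ± 0.25 (SE, limma adjusted p = 0.00638). Neither pair of groups overlapped. In Nthy-ori 3-1 siNT wells RPS29 read 6.81, 6.98 and 6.94 at 48 h and 6.63, 6.22 and 6.67 at 72 h, a difference of -0.40 (limma adjusted p = 0.729). In Nthy-ori 3-1 siCOPZ1 wells it read 6.19, 6.53 and 6.89 at 48 h and 6.04, 5.77 and 6.03 at 72 h, a difference of -0.59 (limma adjusted p = 0.297). These pairs did not overlap either, though neither passed the test, and a difference of the fall between the lines was not tested. RPS29 lay below the array median on 17 of 24 arrays.

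In siNT wells of TPC-1, RPS29 was the only member called, where 2.1% of all genes were. The call was lost without siNT number 2 at 48 h (limma adjusted p = 0.0870), without siNT number 3 at 72 h (0.0638), and when only the 6 arrays compared were fitted (0.437). Without siNT number 1 at 48 h, 3 members were called, RPS29, RPL22L1 and RPS24. In siCOPZ1 wells of TPC-1, where 6.61% of all genes were called, RPS27 and RPS12 were higher at 72 h beside the fall of RPS29. RPS27 read 8.47, 8.05 and 8.45 at 48 h and rose by 1.03 ± 0.16 (SE, limma adjusted p = 0.000338), a fold of 2.04. RPS12 read 8.31, 8.38 and 7.85 at 48 h and rose by 0.74 ± 0.19 (SE, limma adjusted p = 0.0208), a call lost without siCOPZ1 number 3 at 48 h (0.139) or siCOPZ1 number 1 (0.0707) or 2 (0.0746) at 72 h. With only the 6 arrays compared, RPS12 (0.109) and RPS29 (0.105) did not pass, nor did they with all arrays numbered 1 left out (0.0997 and 0.0916). These comparisons share the 72 h siCOPZ1 wells with the depletion comparison, so the 2 rises of RPS27 and RPS12 are not separate evidence.

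In Nthy-ori 3-1, no member passed between 48 h and 72 h in siNT wells (0% of all genes, 8 members and 8.31% of all genes, 1548, at an unadjusted p below 0.05) or in siCOPZ1 wells (0.182% of all genes, 10 members and 13.8% of all genes at an unadjusted p below 0.05). In the siCOPZ1 wells the same numbers deviated together over all genes, and with the array number as a block RPL13A was called, higher at 72 h by 0.77 (limma adjusted p = 0.0131, against 0.0588 without the block). RPL13A read 11.6, 11.0 and 11.6 at 48 h and 12.2, 12.1 and 12.3 at 72 h there. Without siCOPZ1 number 1 at 48 h it was called as well. The block raised the count of all genes in this comparison from 34 to 346.

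**Figure D5:**
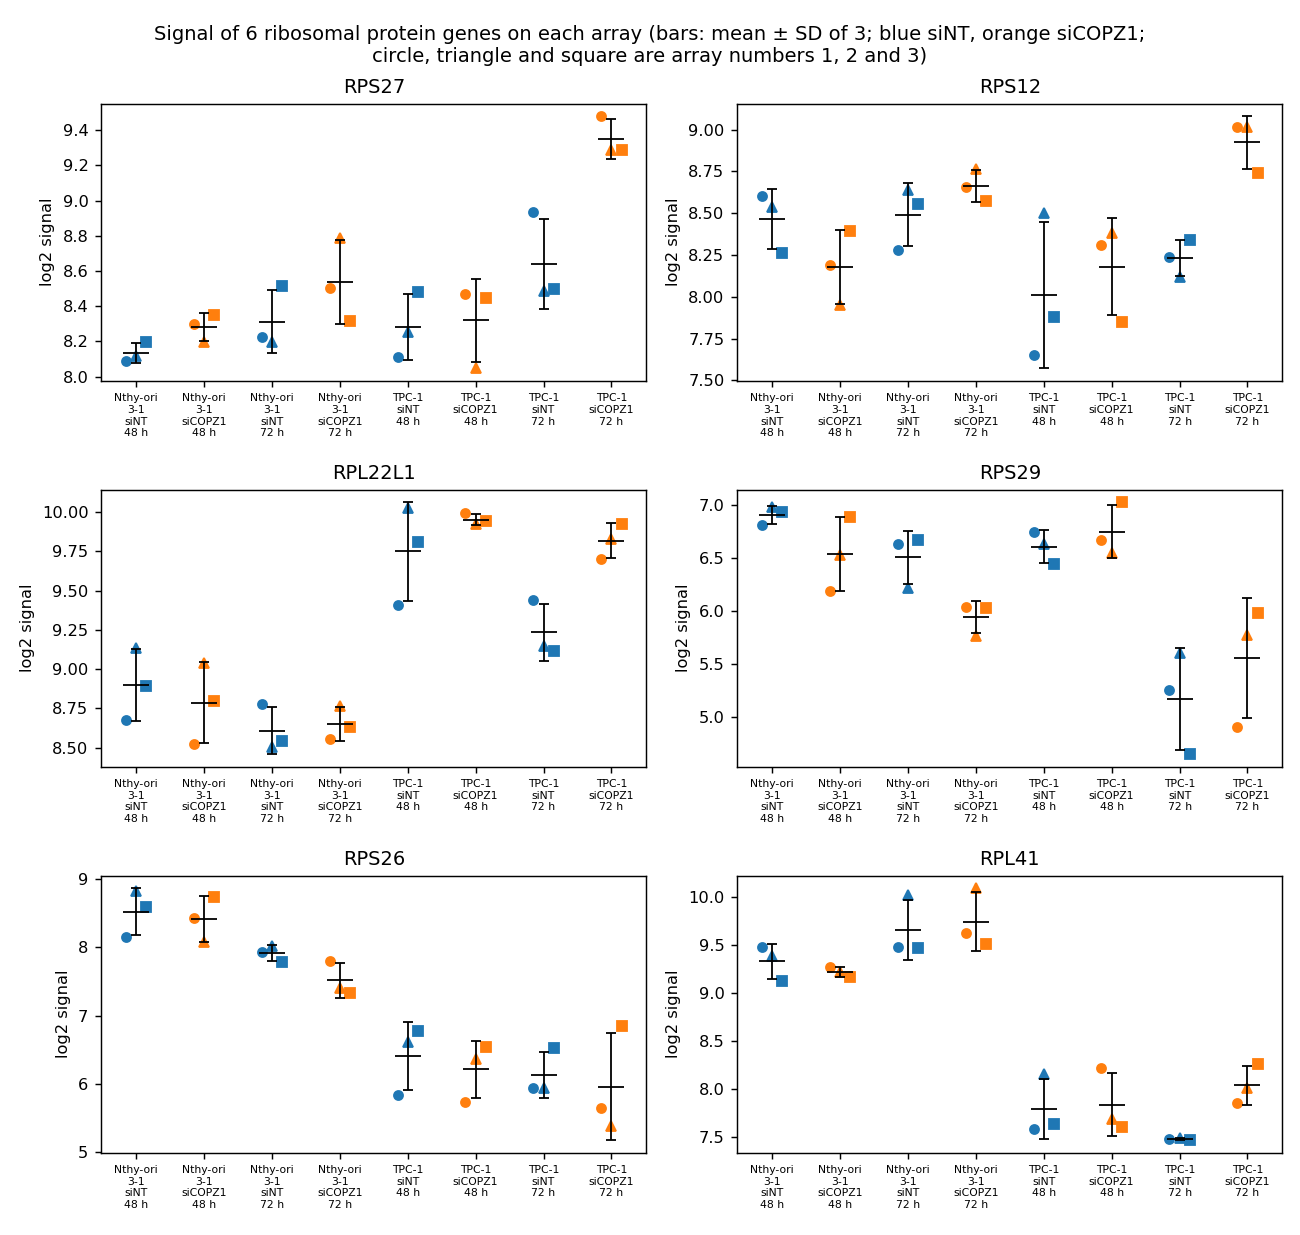
Log2 signal of 6 ribosomal protein genes on each array, by group, with bars for the mean ± SD of 3 wells; the y axes do not start at 0 and differ between panels. By group means, RPS27 and RPS12 are highest in TPC-1 siCOPZ1 wells at 72 h, RPS29 is lowest in TPC-1 at 72 h, and RPS26 and RPL41 are lower and RPL22L1 higher in TPC-1 than in Nthy-ori 3-1.

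The paralogs were read beside their better-known partners. RPL22, which was below the array median on all 24 arrays, did not pass any comparison, and its 8 group means spanned 0.71. RPL22L1 spanned 1.35, and its 72 h difference in TPC-1 (0.59) stood beside one of -0.47 in RPL22 (limma adjusted p = 0.332). RPS27L, a p53 target, went the other way from RPS27 in TPC-1 at 72 h, with 10.0, 9.78 and 9.90 in siNT wells and 9.74, 9.60 and 9.59 in siCOPZ1 wells, but its difference of -0.26 did not pass (limma adjusted p = 0.181). Between the lines RPS27L fell by 0.40 in siNT wells and by 0.58 in siCOPZ1 wells. RPL26L1 fell by 1.01 and 0.95, and RPL7L1 by 0.40 and 0.38, the latter gene losing its call in both without the arrays numbered 1 (limma adjusted p = 0.101 and 0.0727). RPL7L1 is known as a factor of ribosome assembly. RPL3L, a paralog of heart and skeletal muscle, and RPL10L, a paralog of testis, lay below the median on all 24 arrays and spanned 0.52 and 0.17 over the group means. At 72 h in TPC-1 the differences that did not pass were 0.41 in RPL39L, 0.54 in RPL3, 0.19 in RPL7, -0.05 in RPL26L1, -0.04 in RPL10L, -0.01 in RPL3L and -0.02 in RPL7L1.

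Other members with roles of their own did not pass the test on depletion in TPC-1 at 72 h. RPLP0 and RPLP1, of the acidic stalk that recruits elongation factors, differed by 0.47 (limma adjusted p = 0.157) and 0.37 (limma adjusted p = 0.551). RPL5 and RPL11, which with 5S RNA bind MDM2 when ribosome assembly is disturbed, differed by -0.05 and 0.23 (limma adjusted p = 0.927 and 0.304). RPSA differed by 0.28, RPS19 by 0.09 and RPL13A by 0.03. Between the lines in siNT wells RPL5 fell by 0.43, RPL11 by 0.31 and RPS6 by 0.86. The call of RPL5 (limma adjusted p = 0.0244) was lost without Nthy-ori 3-1 number 2 at 48 h (0.0733) or at 72 h (0.0737), without TPC-1 number 3 at 48 h (0.0810) or number 1 at 72 h (0.0723), and when arrays were centred on the brightest 10% (0.0823), as was that of RPL11 (0.0766). Both also lost it without the arrays numbered 1 (0.0964 and 0.119).

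Related genes were counted in the same comparisons, to be read beside the shares of all genes called: 7.03% higher and 7.42% lower on depletion in TPC-1 at 72 h, and between the lines in siNT wells 20% higher and 24.1% lower. FAU, RPL36AL and RACK1 also encode parts of the ribosome but have names outside the rule. Of the 4 genes on the list of such genes, 0 were called on depletion in TPC-1 at 72 h (median 0.18). Of 17 genes for translation factors and other TOP mRNAs, 1 rose and none fell: EIF2S3, the gamma subunit of eIF2, by 1.77 (limma adjusted p = 3.22e-05). Of 45 ribosome biogenesis factors, 10 rose and 1 fell (24.4% called, median 0.32), among them RRP1B (0.67), PNO1 (0.97) and WDR43 (0.96). Of 33 genes for RNA polymerases I and III and their factors, 7 rose and 1 fell, led by the polymerase III subunits POLR3D (1.55) and POLR3A (1.14), and followed in adjusted p by TAF1D (0.69).

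Of 17 genes of growth signalling and p53, 3 rose and 1 fell. The 3 were EIF4EBP1 (0.81), an inhibitor of cap-dependent translation, the MYC partner MAX (0.36) and the p53 target CDKN1A (0.89). Of 77 mitochondrial ribosomal protein genes, 2 rose and 2 fell, among them MRPL52 (0.80), MRPL3 (0.35) and MRPL28 (-0.36), with a median of -0.01. The calls of MAX and CDKN1A were lost without siNT number 2 (limma adjusted p = 0.100 and 0.102) or 3 (0.0593 and 0.127) or siCOPZ1 number 2 (0.0571 and 0.117) or 3 (0.114 and 0.0955), that of MRPL28 without siNT number 2 (0.0732) or 3 (0.0597) or siCOPZ1 number 2 (0.146), and that of MRPL3 without any 1 of the 6 arrays (0.0658 to 0.128). PNO1 (0.0741) and TAF1D (0.0695) lost theirs without the arrays numbered 1.

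Between the lines in siNT wells, 44 of the 77 mitochondrial ribosomal protein genes fell in TPC-1 and 3 rose (median -0.36), among them MRPL33 (-1.31), MRPL11 (-1.06) and MRPS30 (-0.86). Of the biogenesis factors 15 fell and 5 rose, with RRP1B (-1.19), TSR2 (-1.23) and BMS1 (-1.01) the smallest in adjusted p. These counts of biogenesis factors make 44.4% called, beside 44.1% of all genes. Of the polymerase genes 18 fell and 6 rose (median -0.33), among them POLR3F (-1.12), BDP1 (-1.02) and TAF1D (-0.98). Of the translation factors and other TOP mRNAs 8 fell, among them EIF2S3 (-1.53) and BTF3 (-0.66), and 1 rose, the poly(A)-binding protein gene PABPC1 (0.46). RACK1 fell by 0.20 (limma adjusted p = 0.0165), a call lost when arrays were centred on the brightest 10% (0.281). In siCOPZ1 wells, where 19.3% of all genes were called higher and 23.3% lower, 38 mitochondrial ribosomal protein genes fell and 4 rose (median -0.28), 13 biogenesis factors fell and 7 rose (median -0.02), 12 polymerase genes fell and 12 rose (median -0.19), and 7 translation factors and other TOP mRNAs fell and 2 rose (median -0.28).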

How the data were processed

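The deposited table holds 1 log2 value per gene and array, made by the authors with RMA (background correction, quantile normalization and summary of probes) per the submitters' processing notes; the sources used here give neither its version nor the gene annotation. Quantile normalization removes changes that most genes share. The table has 18637 lines. 28 symbols had been turned into dates or serial numbers and were kept unnamed, and 5 extra lines of a repeated symbol were left out, which leaves 18632 genes.

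From these values, a model of 8 group means was fitted over the whole table (limma 3.58.1, R 4.3.3; lmFit and eBayes), and 14 contrasts were tested over all genes with Benjamini-Hochberg adjustment within each contrast and a threshold of 0.05. No filter on dim genes was used. The code was tested on simulated data. The members and the 6 lists of related genes were chosen with earlier results of these data known. Members are named where called (at most 8 in each direction of a contrast), where they are 1 of 23 members with roles or paralogs of interest, or where their group means spanned the widest ranges (3 genes); from a list, at most 3 called genes a contrast are named. Alternatives were the array number as a block, only the arrays compared, centring on the median or on the brightest 10% of genes, leaving out the dimmest tertile, leaving out the arrays numbered 1, and leaving out each array in turn. The block over all groups for the depletion contrasts and the F test of the array number were chosen after seeing the data.

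Same-numbered wells were checked for pairing by the correlation over genes of their deviations from the group means. Over all genes, all 3 correlations were over 0.1 for TPC-1 siNT against siCOPZ1 at 48 h (0.404, 0.292 and 0.145) and for Nthy-ori 3-1 siCOPZ1 at 48 h against 72 h (0.104, 0.17 and 0.12), and not for the other pairs of groups. Over the ribosomal protein genes alone these pairs gave -0.0078, 0.15 and 0.342, and 0.0662, 0.364 and 0.376. TPC-1 siNT against siCOPZ1 at 72 h gave 0.239, 0.421 and 0.287 over them. The number of arrays limits the precision. Protein sequences were not used here, and some genes that the naming rule takes are not reported here.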

Additional observations from a re-analysis of the deposited data

Results flagged for a closer look

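No ribosomal protein gene gave a depletion effect that differed between lines or times by the direct test, and groups of 3 arrays were not searched for outlying wells. Among the 193 related genes on the 6 lists, 6 (3.11%, against 4.02% of all genes) differed between the lines in their response to COPZ1 depletion at 72 h, given here as the TPC-1 effect minus the Nthy-ori 3-1 effect on the log2 scale. The difference was 1.62 in EIF2S3, the gamma subunit of eIF2 (limma adjusted p = 0.00695), and 0.54 in MAX (limma adjusted p = 0.0441). For the polymerase III subunit genes it was 1.11 in POLR3A (limma adjusted p = 0.00155) and 1.26 in POLR3D (limma adjusted p = 0.00341). For the ribosome biogenesis factors it was 0.82 in RRP1B (limma adjusted p = 0.0228) and -2.36 ± 0.62 in PES1 (SE, limma adjusted p = 0.0339). In TPC-1 the effect on EIF2S3 was also larger at 72 h than at 48 h, by 2.06 (limma adjusted p = 0.00202). In siNT wells of TPC-1, EIF2S3 itself fell by 1.72 on the log2 scale between 48 h and 72 h (limma adjusted p = 0.0024).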

How the results depend on the processing

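For TPC-1 at 72 h, the count of ribosomal protein genes called on depletion was 3; it was 7 with the array number as a replicate block within line and time and 7 with the block over all groups, 5 under median centring and 5 without the dimmest tertile. RPS6 and RPL41, which did not pass as fitted, passed under all 4 of these, and RPL32 and RPS13 passed with either block. The blocks raised the count over all genes too. It was 2692 as fitted, 3474 with the block within line and time and 3038 with the block over all groups. Same-numbered TPC-1 wells at 72 h deviated together over the ribosomal protein genes (correlations 0.239, 0.421 and 0.287) but less over all genes (0.163, 0.16 and 0.0412), so the labels' numbers were not taken as pairs there. For 72 h against 48 h, the count in TPC-1 siNT wells (1) was 0 with only the arrays compared and 2 without the arrays numbered 1. In Nthy-ori 3-1 siCOPZ1 wells (0) it was 1 with the block and 1 without the dimmest tertile. In TPC-1 siCOPZ1 wells (3) it was 1 with only the arrays compared and 1 without the arrays numbered 1. The cause was not tested. The block moved no other count of members by over 1.5 times.

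Leaving out 1 array at a time, the counts ran from 1 to 3 on depletion in TPC-1 at 72 h, from 0 to 1 in the line difference of the effect at 72 h and in its time difference in TPC-1, from 0 to 3 over time in TPC-1 siNT wells, from 0 to 1 over time in Nthy-ori 3-1 siCOPZ1 wells and from 2 to 4 over time in TPC-1 siCOPZ1 wells. Between the lines they ran from 32 to 42 in siNT and from 30 to 36 in siCOPZ1 wells, and all other counts stayed at 0. Over all genes the counts between the lines ran from 7665 to 8449 in siNT and from 7469 to 7765 in siCOPZ1 wells.

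The signs that turned were all of uncalled differences in TPC-1 at 72 h. Under median centring RPL3L came to 0.032, RPL10L to 0.0019 and RPL7L1 to 0.0279, and without the arrays numbered 1 RPL3L came to 0.0617, RPL10L to 0.0216 and RPL26L1 to 0.20. With 1 array left out RPL3L ran from -0.0839 to 0.12, RPL10L from -0.0984 to 0.0538, RPL26L1 from -0.15 to 0.10, RPL7L1 from -0.15 to 0.12, RPL7 from -0.11 to 0.39 and RPL5 from -0.19 to 0.0521. Over the named genes, 610 of 661 values under the other alternatives and 945 of 1002 with 1 array left out kept their direction and their side of the threshold.

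Counts over all genes moved more. Under the other alternatives those called on depletion in TPC-1 ran from 1507 to 3474 at 72 h (2692 as fitted) and from 1 to 56 at 48 h (31), the line difference at 72 h from 442 to 1300 (749), and the time difference in TPC-1 from 77 to 851 (381). For 72 h against 48 h they ran from 0 to 844 in TPC-1 siNT (391), from 179 to 1556 in TPC-1 siCOPZ1 (1231), from 7 to 346 in Nthy-ori 3-1 siCOPZ1 (34) and from 0 to 34 in Nthy-ori 3-1 siNT wells (0). Centring on the brightest 10% moved all genes up by 0.10 in the time comparison of TPC-1 siNT wells. With 1 array left out the count for TPC-1 siNT over time ran from 10 to 1802.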

Other observations

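Several ribosomal protein genes serve as reference genes in quantitative PCR, and they were not equally flat over the 8 groups; these genes were picked for their use, after their values had been seen. On the log2 scale the group means of RPS18 spanned 0.35, those of RPLP0 0.65, those of RPL13A 1.02 and those of RPL30 1.26. RPS15, of the small subunit, had the narrowest span of the 78 genes, 0.12, and RPS26 the widest, 2.56. The span includes the spread between wells, which is larger in dim genes.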
